A study of Mus musculus with 32 samples.

Results

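The interferon-stimulated antiviral genes are 38 named genes of the antiviral response, among them sensors, transcription factors and effectors, whose transcription is switched on by interferon. They were chosen by name: a probe belonged to the group when its gene name in the scanner files was one of the 38. All 38 were on the array, with 60 probes between them, and 37 were measured above background on enough arrays to be tested, among 19204 gene names tested in all. The remaining gene, Oas1g, stood well above background on 3 arrays only (wild type LPS 6 h replicate 2, knockout LPS 6 h replicate 2 and wild type LPS 20 h replicate 5) and has no fold change here. The 37 genes did not depend on LPS to pass: each was well above background on at least 4 of the 6 wild-type saline arrays, and 34 were on all 32 arrays.

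RNA of 32 mice was measured with 1 array per mouse, to ask what the transcription factor E2F1 does in the innate response to lipopolysaccharide (LPS), the endotoxin of Gram-negative bacteria. The wild-type mice are labelled E2F1+/+ of strain B6x126 F2 and the knockout mice E2F1-/-, with a strain label of their own that names a mixed B6;129 background and the allele, so genotype and strain background cannot be told apart. Saline was given to 6 wild-type and 6 knockout mice, both labelled 20 hr; LPS was given systemically to 4 and 4 mice taken at 6 h and to 6 and 6 mice taken at 20 h. The 6 h groups have no saline group of their own time. Sex, age, LPS dose and the deleted part of E2f1 are not given in the sources used here, and the labels name liver as the tissue but lung in the extraction protocol.

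Interferons bind receptors at the cell surface, and the receptors' JAK kinases activate a complex, with STAT2 and IRF9 among its parts, that binds interferon-stimulated response elements in the promoters of the antiviral genes. LPS reaches the same genes through Toll-like receptor 4, whose adaptor TRIF leads to IRF3 and to interferon beta, while IRF1 and IRF7 are made as part of the response and widen it. The brakes are part of the program too: USP18 blocks the type I interferon receptor and removes ISG15 from proteins. In the liver, hepatocytes, Kupffer cells, endothelium and incoming leukocytes can all express these genes.

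The sequence to which that complex binds was looked for in the members' promoters. RefSeq windows of the 250 bases before the gene start (GRCm38.p6) were matched by symbol for 29 of the 38 members; Mx1, Mx2, Oas2, Usp18, Dhx58, Zbp1, Parp9, Parp14 and Rtp4 had no match. A pair of GAAA runs with any 2 bases between them, searched on either strand and with overlaps counted, stood in 9 of the 29 (31%), against 3.46% of the 27025 genes with a window, and 6 members had 2 or more matches, against 0.211% of genes. The NF-kappaB-type letters, GGGA and TTCC with any 2 bases between them, stood in 2 of 29 (6.90%) and 1.36% of genes. These are letter matches, not measured binding sites. The 4 windows printed here, 5′ to 3′ on the gene's strand with the matches of the paired GAAA runs in capitals (read as TTTC where they lie on the other strand), belong to genes whose course after LPS is set against each other in what follows. Ifit1 and Rsad2 were among the genes that fell most from 6 h to 20 h, Isg15 was intermediate, and Oas3 kept its level on the probe used. The windows are chr19:34640639-34640888 on the plus strand for Ifit1, and chr12:26456453-26456702, chr4:156200819-156201068 and chr5:120777660-120777909 on the minus strand for Rsad2, Isg15 and Oas3.
Ifit1: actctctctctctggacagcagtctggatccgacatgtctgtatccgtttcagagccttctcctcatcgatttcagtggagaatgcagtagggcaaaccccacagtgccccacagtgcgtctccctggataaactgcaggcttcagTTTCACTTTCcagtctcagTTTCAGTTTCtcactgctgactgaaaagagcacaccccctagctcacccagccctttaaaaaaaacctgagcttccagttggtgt
Rsad2: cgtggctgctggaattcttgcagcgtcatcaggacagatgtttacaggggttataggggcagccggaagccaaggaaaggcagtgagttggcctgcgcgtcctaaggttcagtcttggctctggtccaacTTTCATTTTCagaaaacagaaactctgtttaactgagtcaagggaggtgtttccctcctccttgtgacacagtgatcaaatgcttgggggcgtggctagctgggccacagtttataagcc
Isg15: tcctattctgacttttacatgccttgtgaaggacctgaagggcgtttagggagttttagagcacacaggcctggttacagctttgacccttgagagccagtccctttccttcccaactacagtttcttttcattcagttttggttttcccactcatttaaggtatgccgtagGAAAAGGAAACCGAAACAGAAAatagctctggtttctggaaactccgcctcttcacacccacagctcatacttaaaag
Oas3: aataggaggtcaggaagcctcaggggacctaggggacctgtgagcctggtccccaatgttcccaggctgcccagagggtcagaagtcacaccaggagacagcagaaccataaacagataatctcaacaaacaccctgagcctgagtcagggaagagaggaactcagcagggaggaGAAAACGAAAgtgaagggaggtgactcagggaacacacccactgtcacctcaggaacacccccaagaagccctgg
Ifit1 holds 2 separate matches, which start 104 and 85 bases before the gene start. Isg15 holds a run of 3 overlapping matches that start 78, 72 and 66 bases before it. Rsad2 and Oas3 hold 1 match each, 120 and 75 bases before the start.

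A pair of knockout libraries went against their labels, and this touches every result below. On the array labelled knockout saline replicate 1 the median of the 37 genes lay 4.00 log2 units above the wild-type saline mean, where the other 5 knockout saline arrays lay between -0.66 and -0.01. On the array labelled knockout LPS 6 h replicate 1 it lay at -0.06, where the other 3 lay between 3.47 and 4.11. Both arrays are on slide 8 of 9 and on the third of 3 scan dates, and whether they were exchanged was not tested. All tests used all 32 arrays with 1 common estimate of spread, which both arrays widen, so the counts over the whole group are given with and without both arrays. E2f1 does not settle the labels. Its 2 probes, on chromosome 2 at 154385742 to 154385801 and 154386004 to 154386063 (mm9, the build of the array design), gave median levels of -4.91 and -4.01 over the wild-type arrays and of -3.36 and -2.71 over the 16 knockout arrays. The second probe had no value on wild-type LPS 20 h replicate 1. The probes were well above background on 10 and 12 of 16 wild-type arrays and on 15 and 16 of 16 knockout arrays, so the wild-type medians lie near the floor. The deleted part being unknown, these probes check nothing, and wild type and knockout are the labels' words throughout. As to tissue, the level of Alb, the hepatocyte's albumin gene, was between 9.73 and 10.3 log2 units above the 75th percentile as a mean of each group. Of 4 lung genes listed, Sftpc and Sftpb did not pass the filter, and Sftpa1 and Scgb1a1 did. The summed level of these last 2 was between -4.34 and -2.89 on wild-type saline arrays and between -1.68 and 1.07 at 20 h of LPS.

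**Figure D1:**
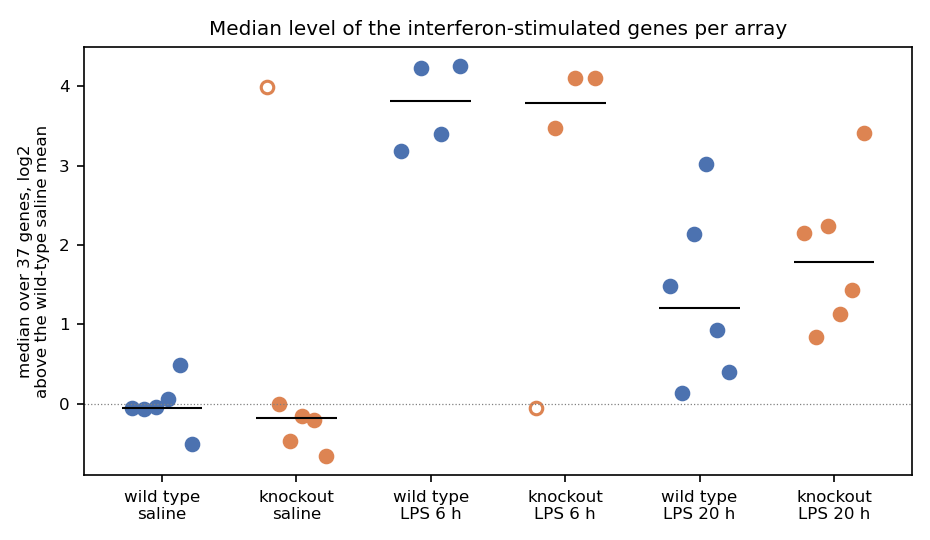
Each point is 1 array: the median, over the 37 genes, of the log2 level above the wild-type saline mean, for the 6 groups (blue, wild type; orange, knockout; bar, median of the group's arrays). The 4 wild-type LPS 6 h arrays sit between 3.18 and 4.25, and the open points are the arrays labelled knockout saline replicate 1 (4.00) and knockout LPS 6 h replicate 1 (-0.06).

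At 6 h after LPS nearly the whole group was higher in wild type. Levels are log2 signals with each array's 75th percentile set to 0, and a gene was called at a limma p below 0.05 after Benjamini-Hochberg adjustment over all 19204 names. By that rule 36 of 37 genes rose, where 12.5% of all genes tested did (37 of 37 without both doubted arrays, where 14.2% did). The median change of the group was 3.75 log2 units, against 0.01 over all genes, and in 36 members the lowest LPS array was above the highest saline array, as in 11.7% of all genes. In bulk tissue, fewer cells of a type and less RNA per cell cannot be told apart. The largest rises were those of Mx1 (613-fold), Ifit2, Ifit1 (278-fold), Rsad2 and Cmpk2 (192-fold), and the smallest changes were those of Stat2, Irf9 and Bst2, the last not called with all arrays. The Mx1 fold is not exact, since Mx1 was well above background on 5 of 6 saline arrays.

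At 20 h most of that rise was gone. Compared with saline, 10 of 37 genes were still called higher, where 16.5% of all genes were (23 of 37 without both arrays, 19%). Compared with 6 h, 24 of 37 had fallen, where 17.2% of all genes had (32 of 37 without both arrays, 19.7%). The group's median was 1.35 log2 units above saline and -2.37 relative to 6 h, against -0.02 and -0.08 over all genes. No member was lower than saline at 20 h by the limma test (0 of 37, and 0 at an unadjusted p under 0.05), where 20.1% of all genes were. Groups of arrays overlapped more at the later time: in 8 members every 20 h array was above every saline array (9.33% of all genes), and in 26 every 20 h array was below every 6 h array (14.1% of all genes). The 3 comparisons share arrays in pairs.

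**Figure D2:**
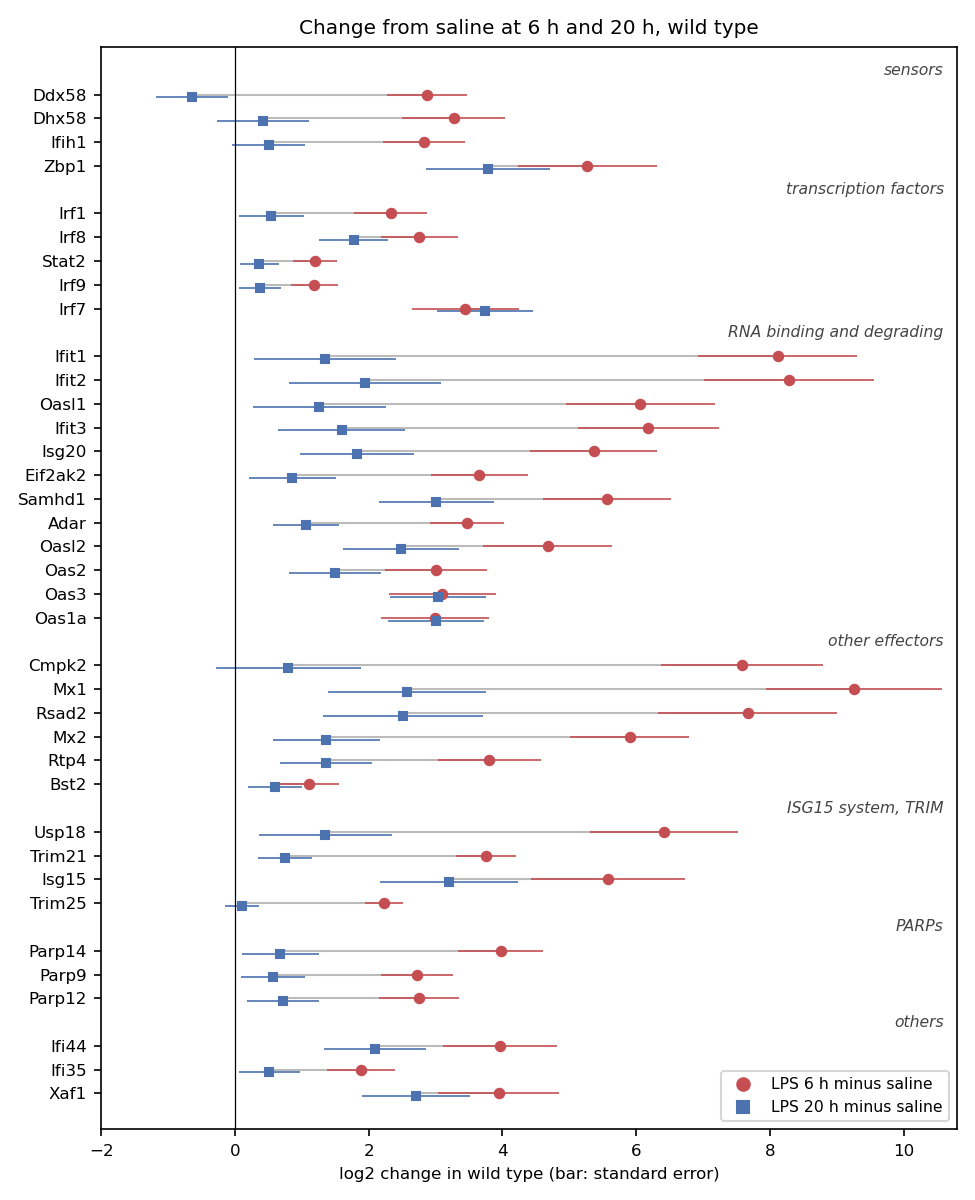
Log2 change from saline of each of the 37 genes in wild type at 6 h (red circle) and 20 h (blue square), by role and ordered within a role by the change from 6 h to 20 h; bars are standard errors of the limma fit over all 32 arrays. The grey lines span more than 6 log2 units for Cmpk2, Ifit1, Mx1 and Ifit2 and are close to 0 for Oas1a and, on its brighter probe, Oas3.

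Of the 4 nucleic acid sensors, 4 rose at 6 h, 3 fell from there to 20 h (4 without both doubted arrays) and 1 was still called above saline. Ddx58 encodes RIG-I, the receptor for uncapped viral RNA, and its level was between -0.49 and 1.04 on the saline arrays (median 0.54). It was 3.28, 3.61, 3.05 and 3.45 on the LPS 6 h arrays, and between -1.53 and 0.78 at 20 h (median -0.03). The 6 h arrays stood apart from both other groups, which overlapped each other. Ddx58 rose 7.31-fold at 6 h (log2 2.87, SE 0.60, adjusted p 0.000588) and fell 11.4-fold from there to 20 h (adjusted p 4.37e-05), and all 4 of its probes fell, by 2.98 to 4.01 on the log2 scale. Ifih1, which encodes the long-RNA receptor MDA5, and Dhx58, which encodes their regulator LGP2, also rose and fell. Zbp1, a sensor of Z-form nucleic acid that can start cell death, differed from them. Its level was between -1.17 and 1.44 on saline (median 0.10), 4.33, 6.47, 5.50 and 5.25 at 6 h, and between 2.85 and 5.10 at 20 h (median 4.02). All its LPS arrays were above all saline arrays at both times, and the 6 h and 20 h arrays overlapped. Zbp1 was 38.6-fold above saline at 6 h (adjusted p 0.000356) and 13.8-fold at 20 h (adjusted p 0.0021). Its difference of -1.49 between the times passed only without both doubted arrays (adjusted p 0.012, against 0.282 with them).

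Of the 5 transcription factors, 5 rose at 6 h, 2 were called at 20 h and 1 fell in between (4 fell without both doubted arrays). Irf1, an early factor that needs no new protein to be induced, was at 3.12 to 4.02 on saline (median 3.83), at 5.24, 6.90, 6.01 and 6.07 at 6 h, and at 3.37 to 5.59 at 20 h (median 4.20). The saline and 20 h arrays overlapped, and the highest 20 h array was above the lowest 6 h array. Irf1 rose 5.02-fold at 6 h (adjusted p 0.0017) and then fell by 1.78 on the log2 scale (adjusted p 0.0114). Irf7, the factor that carries the later wave of interferon alpha genes, did not go down. Its levels were 0.45, 0.82, 0.84, 0.58, 1.34 and 0.25 on saline, 3.45, 4.86, 3.79 and 4.52 at 6 h, and 4.75, 3.55, 4.75, 5.29, 4.28 and 4.09 at 20 h. Every LPS array was above every saline array, with the 2 times mixed. Irf7 was 10.9-fold above saline at 6 h (adjusted p 0.00166) and 13.4-fold at 20 h (adjusted p 0.000167), and the difference between the times was 0.30 (95% interval -1.34 to 1.93). Irf8, a factor of myeloid cells, was called at both times (1.77 log2 units left at 20 h), and Stat2 and Irf9, partners in the complex that binds the response element, rose by only 1.2 and 1.18 at 6 h.

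The RNA-binding and RNA-degrading effectors held both steep falls and lasting rises. Of 12 tested, 12 rose at 6 h, 4 were called at 20 h and 8 fell in between (12, 12 and 10 without both arrays). Ifit1, which binds viral RNA with a foreign cap and stops its translation, was at -0.64 to 1.42 on saline (median -0.36). It was at 8.10, 8.11, 7.74 and 8.16 at 6 h and at -0.59 to 3.22 at 20 h (median 1.24). No 6 h array came near the others, and the 20 h arrays reached down into the saline range. Ifit1 fell 109-fold between the times (log2 -6.77, SE 1.19, adjusted p 6.22e-05), and its change from saline at 20 h was 1.35 (adjusted p 0.338, or 0.0489 without both arrays). Ifit2 and Ifit3, its neighbours and partners, fell by 6.35 and 4.59, and Isg20, an RNA exonuclease, by 3.55.

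The oligoadenylate synthetases make the second messenger that activates RNase L, and they behaved differently. Oas1a was at -0.58 to 0.76 on saline (median 0.18), at 2.26, 4.42, 2.70 and 3.32 at 6 h, and at 1.98 to 3.78 at 20 h (median 3.42). All LPS arrays were above all saline arrays, and the 2 times covered the same range. Oas1a was 7.96-fold above saline at 6 h (adjusted p 0.00558) and 8.04-fold at 20 h (adjusted p 0.00162), with a difference between the times of 0.02 (95% interval -1.63 to 1.66). Oas3 gave 8.57-fold and 8.18-fold on the brighter of its 2 probes, folds that are not exact because it was well above background on 4 of 6 saline arrays. The other Oas3 probe gave 3.48 log2 units at 6 h and 1.79 at 20 h, a difference of -1.69 (adjusted p 0.136), so the lasting rise of Oas3 depends on the probe. Oas2 and Oasl2 kept 49.8% and 53.1% of their log2 rise. Oasl1, which represses translation of the Irf7 message, kept 20.8% and fell by 4.80 (adjusted p 0.0013). The Oas1 genes are near-identical copies, so the Oas1a probe may also read its relatives. Eif2ak2, the kinase PKR, and Adar, the RNA-editing deaminase, rose at 6 h and fell. Samhd1, which empties the pool of deoxynucleotides, rose 47.2-fold, fell 5.86-fold (adjusted p 0.0387) and was still 8.06-fold above saline at 20 h (adjusted p 0.00659).

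**Figure D3:**
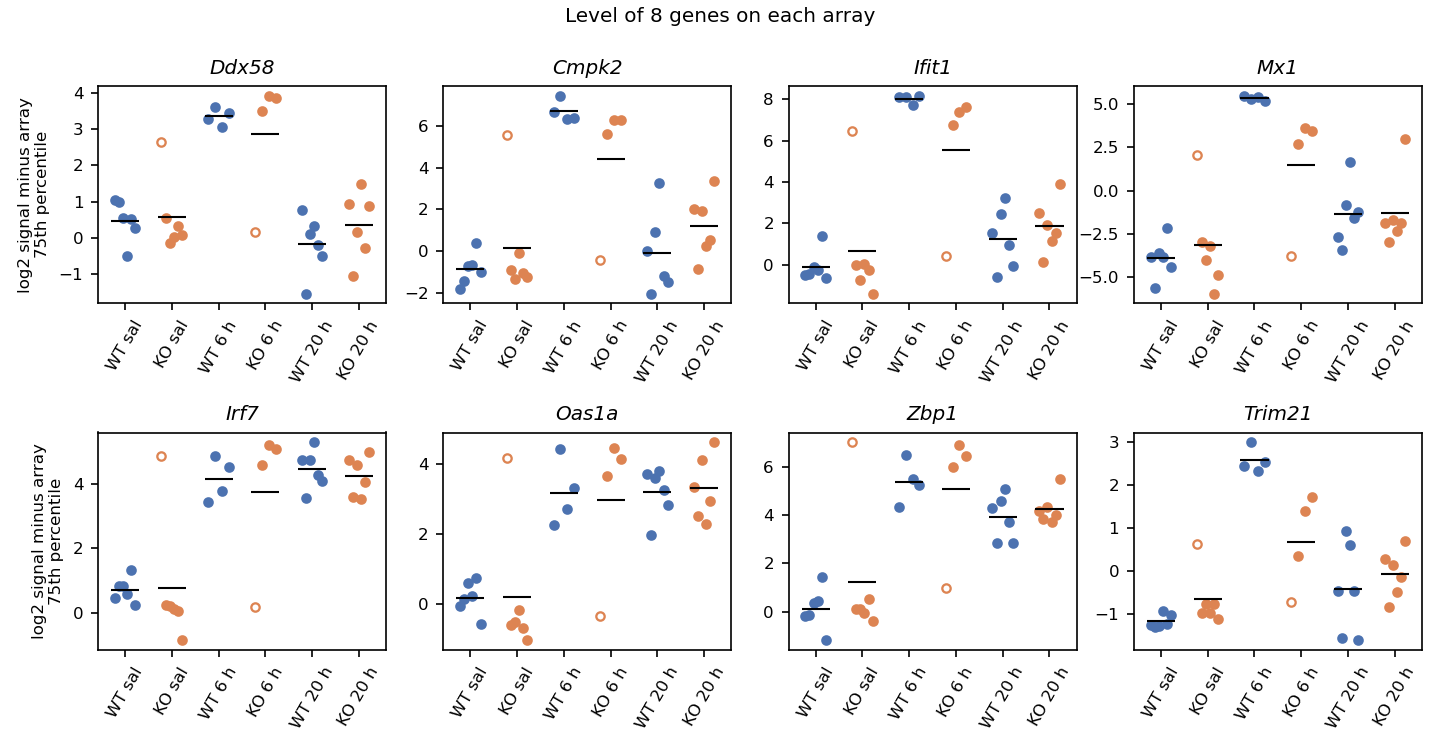
Log2 level minus the array's 75th percentile of 8 genes on each of the 32 arrays (blue, wild type; orange, knockout; bar, group mean over all its arrays; open points, the arrays labelled knockout saline replicate 1 and knockout LPS 6 h replicate 1). Ddx58, Cmpk2, Ifit1 and Mx1 return towards saline levels at 20 h, whereas Irf7 and Oas1a have wild-type medians of 4.51 and 3.42 there.

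The other antiviral effectors all rose steeply apart from Bst2. Cmpk2 makes the nucleotide from which viperin, the product of its neighbour Rsad2, forms a chain terminator of viral RNA. Its level was -1.81 to 0.38 on saline (median -0.87), 6.67, 7.45, 6.33 and 6.40 at 6 h, and -2.03 to 3.26 at 20 h (median -0.58). The 6 h arrays were far above all others, and the 20 h arrays spread below and above the saline range. Cmpk2 fell 111-fold (adjusted p 7.58e-05), and its 20 h change from saline was 0.80 (adjusted p 0.601). Mx1, a GTPase that traps viral nucleoproteins, was at 5.48, 5.30, 5.42 and 5.18 at 6 h and fell 103-fold (adjusted p 0.000244), and its second probe gave a fall of 6.80 on the log2 scale. The level of Bst2, a membrane tether that holds budding virions, was 4.73 to 6.14 on saline (median 5.71), 6.13, 7.19, 6.27 and 7.34 at 6 h and 5.46 to 7.13 at 20 h (median 6.03). Its 3 groups overlapped. The change of Bst2 at 6 h was 1.11 (SE 0.45, adjusted p 0.0628, or 0.00926 without both arrays), and it was the 1 member not called at 6 h.

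The ISG15 system rose as a whole. Usp18 was at 0.32 to 2.20 on saline (median 1.46), at 7.44, 8.11, 7.66 and 8.01 at 6 h and at 1.02 to 4.32 at 20 h (median 2.86). The 6 h arrays stood alone, and the 20 h arrays began inside the saline range. Usp18 rose 85.2-fold (adjusted p 9.02e-05) and fell 33.5-fold (adjusted p 0.000735). Isg15, the ubiquitin-like protein it removes, rose 47.6-fold and was 9.21-fold above saline at 20 h (adjusted p 0.0155), with 57.5% of its log2 rise left against 21% for Usp18. Trim25, the ligase that activates RIG-I, went back to 0.10 above saline after a rise of 2.23 (SE 0.28, adjusted p 3.26e-06). Trim21, the cytosolic antibody receptor, rose 13.5-fold and fell 8.05-fold.

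The 3 ADP-ribosyltransferases rose and fell together. Parp14 was at 2.70 to 3.52 on saline (median 3.22), at 6.64, 7.39, 7.03 and 7.39 at 6 h and at 2.39 to 5.09 at 20 h (median 3.83), so that only the 6 h arrays stood apart. Parp14 rose 15.7-fold and fell 9.82-fold (adjusted p 0.000198), and Parp12 rose 6.75-fold and fell 4.1-fold (adjusted p 0.0093). In none of the 3, Parp9 included, was the 20 h change from saline called. Of the other members, Ifi44 rose 15.6-fold and was 4.25-fold above saline at 20 h (adjusted p 0.0321), on a probe that fell by 1.87 where its second probe fell by 3.80. Xaf1, a proapoptotic binding partner of XIAP, rose 15.4-fold and was 6.54-fold above saline at 20 h (adjusted p 0.00911), and its fall of 1.23 on the log2 scale was not called with or without both arrays (adjusted p 0.303 and 0.206). Ifi35 rose and fell, and Rtp4 fell by 2.45 (adjusted p 0.0144).

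The share of the 6 h log2 rise left at 20 h sorted the group on 1 scale. In wild type its median was 27.7%, with under 25% left in 15 members and 50% or more in 11. At the low end were Ddx58 (-22.4%), Trim25 (4.59%), Cmpk2 (10.5%) and Dhx58 (12.6%). At the high end were Irf7 (109%), Oas1a (101%), Oas3 (97.8%), Zbp1 (71.8%), Xaf1 (68.7%) and Irf8 (64.3%). With all arrays 23 members rose, fell and were not called above saline at 20 h, and 1 (Samhd1) rose, fell and was still called. A further 9 were called at both times with no fall called, and 4 had neither a fall nor a 20 h rise called. Without both doubted arrays these numbers were 13, 19, 4 (Oas1a, Oas3, Irf7 and Xaf1) and 1 (Bst2). Neighbours on a chromosome are given side by side, with no test of the difference between them. Rsad2 and Cmpk2, 36.2 kb apart on chromosome 12, kept 32.7% and 10.5%, and Oasl2 and Oasl1, 25.3 kb apart on chromosome 5, kept 53.1% and 20.8%. Mx1 and Mx2 on chromosome 16 kept 27.7% and 23.1%, and Parp14 and Parp9, also on chromosome 16, kept 17.1% and 20.8%. Response element letters were found at both ends of the scale: the paired GAAA runs stood in 4 of 10 promoters of members that kept 50% or more and in 4 of 18 that kept less. Of the windows printed above, Ifit1 and Oas3 both hold the letters and kept 16.6% and 97.8%, the latter on the brighter of 2 Oas3 probes. The other Oas3 probe changed by -1.69 from 6 h to 20 h.

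Of the 17 members with several probes that passed, all 17 gave the same sign on each probe for the change from 6 h to 20 h, and 16 gave the same call, Ifi44 being the exception.

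Mice of the 20 h groups differed from each other across the group as a whole. The median of the 37 genes above the saline mean was 0.14, 0.40, 0.92, 1.48, 2.14 and 3.02 on the 6 wild-type 20 h arrays, against 3.18 to 4.25 at 6 h. Replicate 4 was the highest array in 27 members and replicate 2 the lowest in 23. Replicate 2 lies on slide 8, which also holds both doubted arrays and the lowest knockout 20 h array, and its part in the spread was not tested. Within the 3 scan dates the median fall from 6 h to 20 h was -2.32, -1.80 and -3.39. These rest on 3, 2 and 1 arrays at 20 h against 1, 1 and 2 at 6 h.

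In the knockout the counts turned on both doubted arrays, which belong to its saline and 6 h groups. At 6 h 16 of 37 genes rose with all arrays, where 1.58% of all genes did, and 37 of 37 without both arrays, where 12.9% did. Leaving out 1 array at a time moved that count between 0 and 37, with 37 without the array labelled saline replicate 1 and 36 without that labelled LPS 6 h replicate 1. At 20 h 11 were above saline (11.7% of all genes), or 32 (16%) without both arrays. From 6 h to 20 h 3 fell (8.34% of all genes), or 29 (10.9%) without both arrays. The group medians were 2.68, 1.20 and -0.96 with all arrays and 4.45, 2.31 and -2.10 without both. With all arrays every member overlapped between groups (0 of 37 apart in each comparison, against 0.417%, 1.5% and 3.27% of all genes). Without both doubted arrays 37, 28 and 21 members were apart, against 15.4%, 6.69% and 7.62%, so some members overlapped without them too. Within scan dates the median change at 6 h was 4.42 and 4.58 on the first and the second, and -1.95 on the third, whose only knockout 6 h array is the doubted one. These rest on 1, 2 and 1 arrays at 6 h, against 2 saline arrays on each date.

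Knockout values of single genes are given without both arrays. Ifit1 was at 6.74, 7.36 and 7.64 at 6 h, 208-fold above saline (adjusted p 3.3e-09), and at 0.14 to 3.89 at 20 h (median 1.75). It fell 41.7-fold between the times (adjusted p 2.36e-06), and also fell with all arrays (adjusted p 0.0336), as did Ddx58 (adjusted p 0.00489) and Eif2ak2. Irf7 was at 4.59, 5.22 and 5.08 at 6 h and at 4.75, 3.58, 4.59, 3.52, 4.06 and 4.98 at 20 h, 2 sets that overlap. It was 32.2-fold and 19.6-fold above saline, with a difference between the times of -0.71 (adjusted p 0.179). Zbp1 rose 82.4-fold and was 18.1-fold above saline at 20 h. Oas1a was 14.9-fold above saline at 20 h. Oas3 was also called above saline at 20 h, with a fold that is not exact because it was well above background on 1 of the 5 saline arrays. Of the 6 h log2 rise a median of 42.2% was left, with under 25% in 4 members (Stat2, Ddx58, Eif2ak2 and Trim25) and 50% or more in 14. Of these 14, 10 were among the 11 that kept 50% or more in wild type. The share was higher in knockout than in wild type in 29 of 37 members, a count with no test of its own.

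**Figure D4:**
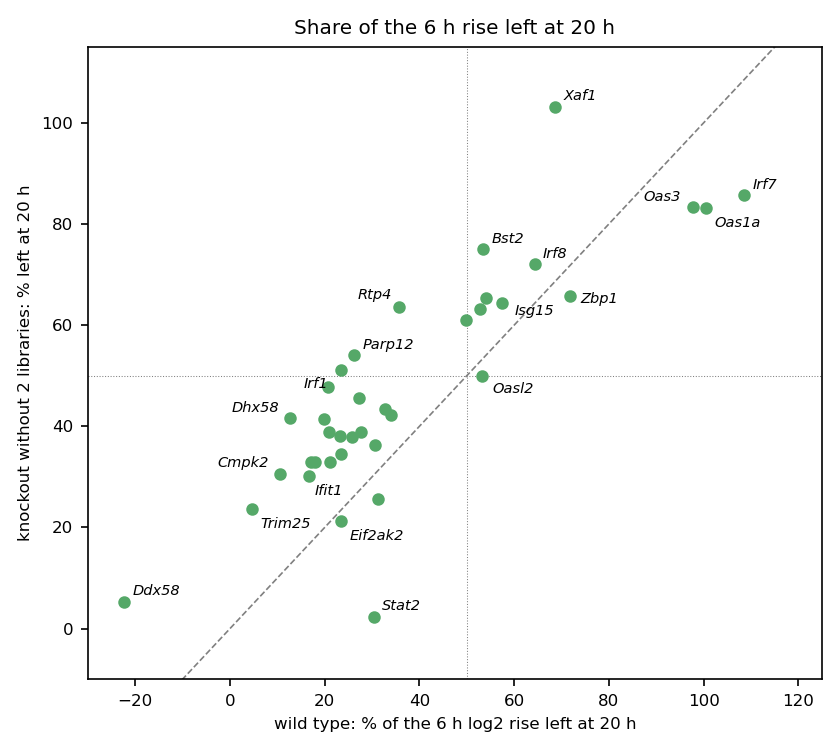
Percent of the 6 h log2 rise left at 20 h in wild type (x axis, all arrays) and in knockout without the 2 doubted arrays (y axis); each point is 1 of the 37 genes, dotted lines mark 50% and the dashed line equal shares. Irf7, Oas1a and Oas3 (on its brighter probe) lie above 80% on both axes, and Ddx58 and Trim25 under 25% on both.

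Between the genotypes 1 gene was called at 1 time. On saline 0 of 37 members differed by the limma test (0.333% of all genes did), 0 at an unadjusted p under 0.05. Without both arrays it was again 0 (0.354% of all genes), with 4 at an unadjusted p under 0.05. The largest differences there were those of Oasl1 (-1.57, 95% interval -2.60 to -0.54, adjusted p 0.333) and Ifi44 (-1.13, adjusted p 0.661). At 20 h 0 differed with all arrays (0.323% of all genes), 0 at an unadjusted p under 0.05, and 0 without both (0.521%), with 1 at an unadjusted p under 0.05. The largest at 20 h were those of Cmpk2 (1.29, 95% interval -0.93 to 3.50), Xaf1 (0.95) and Rtp4 (0.74). These intervals leave room for differences of several fold. The group's median difference at 20 h was 0.37 (33 of 37 genes above 0). Within the 3 scan dates it was 0.76, -0.80 and 1.73, so its direction was not the same on each date. These rest on 2 knockout arrays a date against 3, 2 and 1 wild-type arrays, the last being replicate 2 on slide 8.

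At 6 h Trim21 was lower in the knockout with all arrays, the 1 call among 37 (1.26% of all genes were called). Its levels were 2.44, 2.99, 2.33 and 2.55 in wild type and -0.73, 0.33, 1.40 and 1.72 in knockout, the first of these being the doubted array. The genotypes did not overlap, even among the other 3 knockout arrays. The difference was -1.89 (95% interval -2.90 to -0.89, adjusted p 0.0492), and -1.42 without both doubted arrays (95% interval -2.34 to -0.51, adjusted p 0.112), where no member was called (1.34% of all genes were) and 3 had an unadjusted p under 0.05. With a slide block, median centring or the mean over probes the call was lost as well, as it was in 22 of the 32 fits that left out 1 array. Trim21 has 1 probe on the array, so the mean over probes left its own levels unchanged. Trim25, the other TRIM ligase of the group, was at 5.68, 5.68, 6.08 and 5.78 in wild type and at 3.70, 4.68, 5.47 and 5.03 in knockout. Here too the groups were apart, with a difference of -1.08 (adjusted p 0.0761) and of -0.74 without both (adjusted p 0.155). Mx1 was at 5.18 to 5.48 in wild type and at -3.77, 2.70, 3.62 and 3.46 in knockout. That gave -3.84 (adjusted p 0.239) with all arrays and -2.08 (95% interval -4.25 to 0.09, adjusted p 0.405) without both. Over the group the median difference at 6 h was -0.85 with all arrays and 0.17 without both (20 of 37 genes above 0). Within scan dates it was -0.17, 0.20 and -3.80, from 1, 2 and 1 knockout arrays against 1, 1 and 2 wild-type arrays. The only knockout 6 h array of the third date is the doubted one. Ifit1 and Cmpk2 were also lower on every knockout array than on any wild-type array, with or without the doubted array. Without it Ifih1 was higher on every knockout array, at 5.27 to 5.47 against 4.42 to 5.22 in wild type. How many members were apart between genotypes was not counted, nor the share over all genes, so these separations have nothing to be read against.

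**Figure D5:**
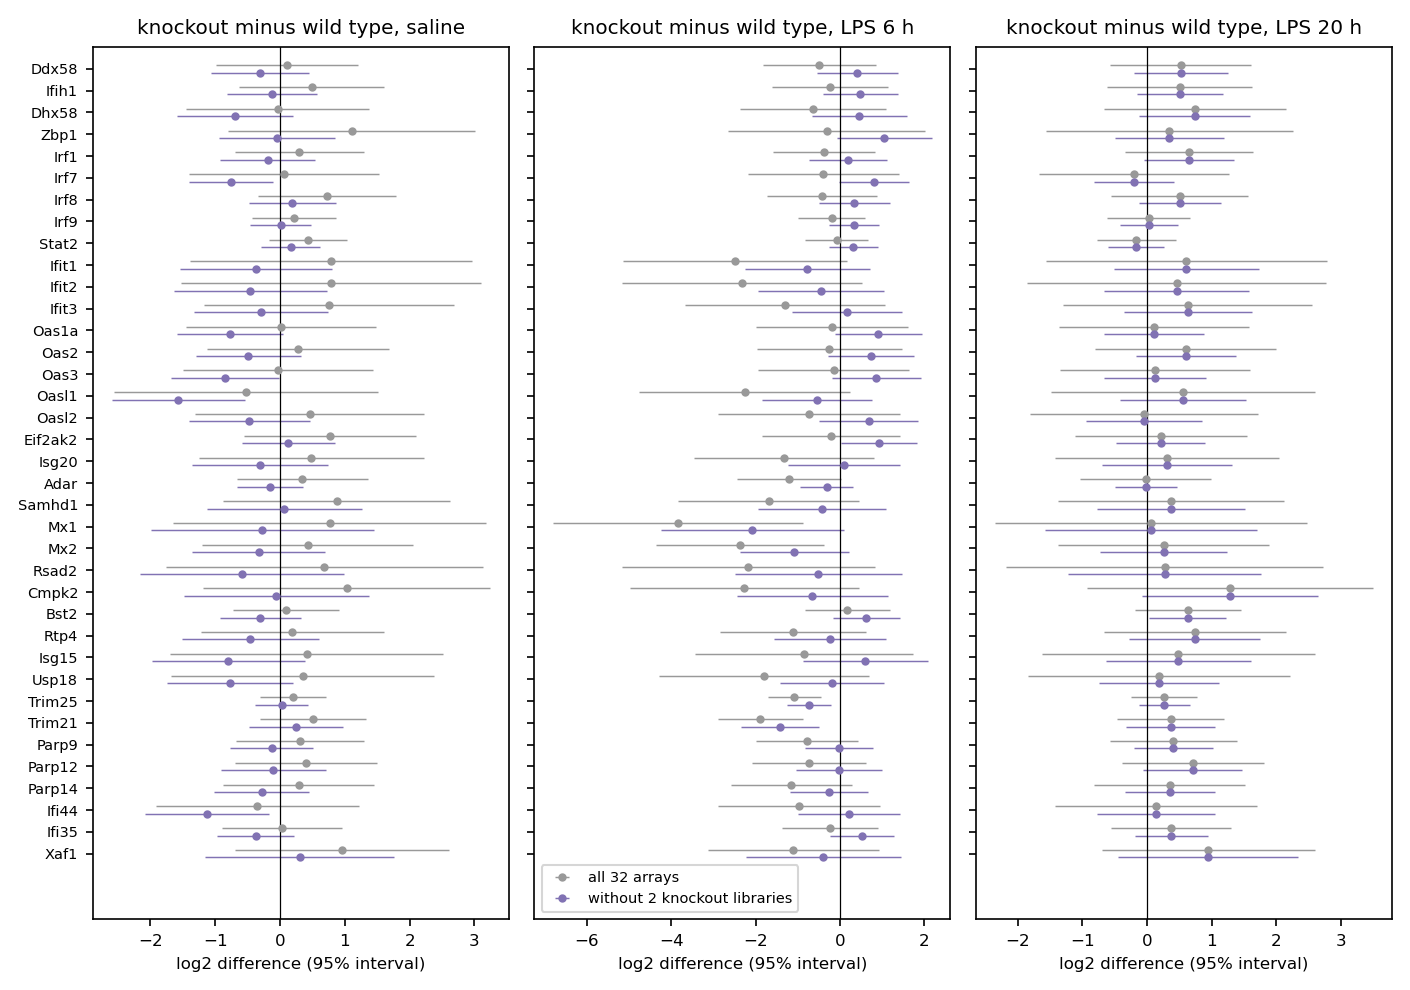
Knockout minus wild type in log2 units for each of the 37 genes on saline, at 6 h and at 20 h of LPS (points, difference; lines, 95% interval), with all 32 arrays (grey) and without the 2 doubted knockout arrays (purple). At 6 h the group lies left of 0 in grey (median -0.85) and around 0 in purple (median 0.17), with Trim21, Trim25 and Mx1 left of 0 in both.

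No member was called for a different response by genotype in the tests of the difference itself. In the limma interaction test at 6 h 0 of 37 were called (0.125% of all genes), with 4 at an unadjusted p under 0.05, and 0 without both arrays (0.151%), with 5. At 20 h it was 0 (0.0417%), 0 at an unadjusted p under 0.05, and 0 without both arrays (0.0573%), with 3. For the course from 6 h to 20 h it was 0 (0.328%), with 5 at an unadjusted p under 0.05, and 0 without both (0.484%), with 2. The Trim21 interactions were -1.67 at 6 h (adjusted p 0.287) and 1.79 for the course (adjusted p 0.153) without both arrays. Over the group the median interaction without both arrays was 0.37 at 6 h, with 28 of 37 members above 0. It was 0.75 at 20 h (36 of 37 above 0) and 0.30 for the course (25 of 37). With all arrays the 3 medians were -1.26, -0.01 and 1.34. These medians have no test of their own.

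Genes upstream and beside the group were read from a list of the interferon pathway, in wild type with all arrays. Of the interferons 4 of 9 could be tested: Ifng rose by 6.95 at 6 h (adjusted p 0.00119) and was 3.78 above saline at 20 h (adjusted p 0.0333), sizes that are not exact because it was well above background on 1 of 6 saline arrays. Ifnb1, the gene of interferon beta, and Ifna4 were not well above background on enough arrays to be tested, and Ifna2, Ifna5 and Il28b were tested and not called. Of 6 receptor chains 2 rose at 6 h, and of 9 signalling genes 4 rose and 2 fell. Jak2, a kinase of the interferon gamma receptor, rose by 3.08 at 6 h (adjusted p 3.49e-05). The regulators Irf3 and Irf5 were lower than saline at 20 h, by 0.99 and 1.29. Of 11 upstream sensors and adaptors tested, 7 rose and 1 fell at 6 h, and 2 rose and 2 fell at 20 h (4 rose and 2 fell without both doubted arrays). Among all genes 12.5% rose at 6 h, and 16.5% rose and 20.1% fell at 20 h. The share that fell at 6 h is not given here, so the falls at 6 h have no share beside them. Tlr3, the receptor for double-stranded RNA, rose by 4.80 and was 0.53 above saline at 20 h (adjusted p 0.531), a fall of 4.27 on the log2 scale (adjusted p 2.22e-05). Of 5 brakes on cytokine signalling, 2 rose and 1 (Ptpn6, at -0.69) fell at 6 h, and 3 were called above saline at 20 h. Socs1 was 8.10 above saline at 6 h and 5.65 at 20 h (adjusted p 0.000496), and Socs3 5.05 and 3.42, with no fall between the times called (adjusted p 0.16 and 0.173). All 3 genes of ISG15 conjugation rose at 6 h, with Herc5 (the array's name for a gene of the ligase family) at 4.89 and 2.26. No gene of the list was called between genotypes or in an interaction.

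Markers of other cells moved at the same times. For comparison, in wild type with all arrays 12.5% of all genes rose at 6 h, and 16.5% rose and 20.1% fell at 20 h. All 5 neutrophil markers tested of 6 listed were higher at 6 h and at 20 h, by medians of 4.88 and 4.85. Their summed level was between -0.30 and 3.15 on wild-type saline arrays, 5.73 and 6.56 at 6 h and 5.71 and 7.02 at 20 h. On knockout arrays the sum was 8.32 on the array labelled saline replicate 1 and 0.16 to 1.43 on the other 5, 3.11 on the array labelled LPS 6 h replicate 1 and 7.22 to 8.05 on the other 3, and 6.07 to 7.38 at 20 h. The Kupffer cell list had 1 called higher and 5 lower at 20 h, with Clec4f lower by 2.95, and 3 of 4 hepatocyte markers were lower at 20 h. The markers of plasmacytoid dendritic cells, a cell known for making interferon alpha, had 2 of 3 tested and 0 called in wild type, with sums from -4.93 to -2.31 over all arrays. Sftpa1, a lung surfactant gene, rose by 1.90 at 6 h and 4.52 at 20 h. The part of changing cell numbers in the antiviral genes was not tested.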

How the data were processed

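RNA of 32 mice, from tissue labelled liver (lung in the extraction protocol), was hybridised to 1-colour Agilent 4x44K mouse arrays. Per the file headers the deposited scanner files hold Cy3 intensities made with Agilent Feature Extraction 10.7.1.1. The authors' deposited value table is on a log2 scale. Its medians were between 8.80 and 8.91, it correlated with the scanner signal at 0.980 to 0.991, no source used here gives its normalization, and it served as an alternative. From the background-subtracted, processed intensities, log2 minus each array's 75th percentile was computed (percentiles 282 to 1138). Control spots and outlier flags (84 to 232 spots per array) were left out, and no spot was flagged as saturated. A probe was used where 4 or more arrays had it well above background (28345 of 41174 probes), and the brightest probe stood for a gene. One limma 3.58.1 fit (R 4.3.3) of the 6 group means over all 32 arrays gave every contrast, its intervals (95%) and p-values, adjusted by Benjamini-Hochberg over 19204 gene names, and it was tested on simulated data. The number of arrays limits the precision. Genes given with single-array values by group were mostly those with the most negative and most positive change from 6 h to 20 h in wild type per role. Parp12, Ifi44 and Xaf1, also at the end of their role, are given without them. The 1 gene called between genotypes was included, and others were added to show neighbours, probes or genotype differences. Not all of the largest genotype differences are given, that of Mx2 at 6 h being left out. The members and all gene lists were chosen with earlier results of these data known. Alternatives were other scalings, background correction, filters and probe rules, slide and replicate blocks, fits within scan dates or of fewer groups, array weights, the deposited table and each array left out in turn. Chosen after seeing the data were fits without both doubted arrays (also with a slide block or without knockout LPS 20 h replicate 6), without slide 8, and of wild-type arrays only. Results for 1 pathway gene and 1 promoter motif are not reported here.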

Additional observations from a re-analysis of the deposited data

Results flagged for a closer look

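Levels of single arrays were compared with the others of their group by Dixon's gap ratio, which by chance picks about 1 group in 20. Of 222 tests (37 genes in 6 groups), 62 were past the 95% limit, and most came from the pair of knockout arrays that went against their labels. The array labelled knockout saline replicate 1 was the highest of its group in all 37 genes, and past the limit in 34. The log2 levels of Ifit1, Ifit2, Ifit3, Isg15, Isg20, Mx1, Mx2, Rsad2 and Oas1a there were 6.45, 4.36, 7.94, 7.99, 4.36, 2.08, 4.68, 8.01 and 4.16. Oas2, Oas3, Oasl1, Oasl2, Irf1, Irf7, Irf8, Stat2 and Usp18 were at 2.02, -0.08, 5.83, 4.87, 6.48, 4.88, 4.04, 3.34 and 7.37. The values of Cmpk2, Ddx58, Ifih1, Dhx58, Zbp1, Ifi44, Ifi35, Trim21 and Parp9 were 5.57, 2.64, 5.59, 4.49, 7.01, 2.73, 4.71, 0.64 and 4.59. Parp14, Xaf1, Rtp4, Bst2, Eif2ak2, Samhd1 and Adar stood at 6.26, 3.33, 6.57, 7.67, 4.37, 4.55 and 2.62.

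The array labelled knockout LPS 6 h replicate 1 was the lowest of its group in all 37 genes, and past the limit in 20. The log2 levels of Ifit1, Ifit2, Ifit3, Isg15, Isg20, Mx1, Oas1a, Oas2 and Oas3 there were 0.42, -2.29, 2.41, 1.93, -0.35, -3.77, -0.35, -2.34 and -4.25. Oasl1, Irf7, Irf9, Usp18, Cmpk2, Ddx58, Ifih1, Zbp1 and Parp9 were at -0.24, 0.16, 0.88, 1.14, -0.42, 0.17, 2.45, 1.00 and 1.70. The values of Parp12 and Adar were -0.16 and -0.62.

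The other 8 lay on 4 other arrays. Knockout LPS 20 h replicate 6 was highest for Mx1 (3.0), Ifih1 (4.81), Dhx58 (4.52) and Zbp1 (5.50). Wild-type saline replicate 5 was highest for Ifit1 (1.42) and Rsad2 (3.19). Wild-type saline replicate 6 was lowest for Ifih1 (1.63), and wild-type LPS 6 h replicate 3 was lowest for Ifit1 (7.74). The cause was not tested.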

How the results depend on the processing

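The rises at 6 h (36 genes) and the falls from 6 h to 20 h (24) in wild type stayed within 1.5 times under the alternatives run. The wild-type count above saline at 20 h (10) was 23 without both doubted arrays, 27 with a slide block as well or without slide 8, 16 with array weights, 20 with only the groups compared or only wild-type arrays, and 18 and 29 within the first and the second scan date. The knockout count at 6 h (16) was 37 without both arrays, also with the slide block, without slide 8, with array weights and within the second scan date. It was 7 with quantile scaling and 0 with normexp and quantile scaling, no filter, the slide block, the replicate block or only the groups compared. The knockout count at 20 h (11) was 32 without both arrays, 34 with the slide block or without slide 8, 30 without knockout LPS 20 h replicate 6 too, 29 with array weights, 5 with only the groups compared, and 26 and 0 within the first and the third scan date. The knockout falls (3) numbered 29 without both arrays, 27 with the slide block or without slide 8, 31 with array weights or without knockout LPS 20 h replicate 6 too, 32 within the second scan date, 8 with a filter of 16 arrays, 1 with the slide block alone or the replicate block, and 0 with only the groups compared. The call of Trim21 (1) became 0 with median centring, no filter, probe means, the slide block, the replicate block, only the groups compared, without both arrays, with the slide block as well, and without slide 8. Leaving out 1 array at a time gave 36 to 37, 8 to 15 and 21 to 29 in wild type, where 8 came without LPS 20 h replicate 4 and 15 without knockout saline replicate 1. In knockout it gave 0 to 37 at 6 h (37 without saline replicate 1, 36 without LPS 6 h replicate 1), 6 to 29 at 20 h (29 without saline replicate 1, 6 without saline replicate 6) and 1 to 22 for the fall (22 without LPS 6 h replicate 1, 11 without saline replicate 1, 8 without LPS 20 h replicate 6, 1 without any other LPS 6 h replicate). It gave 0 to 2 for the genotype difference at 6 h and 0 to 0 for the others. Within the second scan date the knockout change from 6 h to 20 h reversed for Irf7 (-1.35), Oas1a (-1.69) and Oas3 (-1.58). Without both doubted arrays their changes were already negative, at -0.71, -0.79 and -0.80. Replicate numbers did not pair samples: 72 same-numbered pairs correlated at -0.68 to 0.34, with a median of 0.01.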
